A study of Homo sapiens with 12 samples.

Results

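miR-193 and miR-365 were followed here across the small RNA libraries of 2 acute myeloid leukemia (AML) cell lines in which the mitochondrial pyruvate carrier subunit MPC1 had been knocked out. The members were chosen by name, as 5 mature miRNAs: hsa-miR-193a-5p, hsa-miR-193a-3p, hsa-miR-193b-3p, hsa-miR-193b-5p and hsa-miR-365a-3p. Of these, 4 were rows of the count table, which holds 1204 miRNAs in all, and hsa-miR-365a-3p was not analysed here. Another 2 arms of the same hairpins, hsa-miR-365b-5p and hsa-miR-365a-5p, were rows and are described beside the members, so that 6 of the 8 arms of the 4 hairpins had values.

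The 12 libraries fell into 4 groups of 3: MV4-11 EV, MV4-11 MPC1 KO, Molm-14 EV and Molm-14 MPC1 KO. MV4-11 and Molm-14 are human AML lines that both carry the FLT3-ITD mutation. MPC1 KO cells received a lentiCRISPRv2 construct with a GFP selection marker and a single guide against MPC1, so that an effect of this guide on other sites and the loss of MPC1 cannot be told apart, and EV cells received the empty vector. Separate cultures are not stated in the labels for the libraries within a group, so the p-values below measure the spread between these libraries only. MPC1 is an mRNA and had no row in a miRNA table, so the knockout could not be checked in these libraries. The total count ranged from 3870104 to 8683456 per library. Of 5 blood cell miRNAs, miR-142-3p, miR-142-5p, miR-223-3p and miR-223-5p were abundant in every library and the lymphoid miR-150-5p was low, at 1.41 CPM or more and never above 4.0 CPM (CPM, counts per 1000000 counted reads). The whole blood list summed to between 28685 and 68304 CPM. The liver miR-122-5p reached 9.57 CPM and the nerve cell miR-124-3p reached 1.17 CPM. The sum of the epithelial pair was 104 to 256 CPM, nearly all of it miR-200c-3p, with miR-205-5p at no more than 0.388 CPM. The mesenchymal pair miR-143-3p and miR-145-5p summed to 99.0 to 715 CPM and was higher in MV4-11 than in Molm-14. The erythroid pair summed to 3.19 to 11.7 CPM. The part of these other lists in the differences between the lines was not tested.

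A miRNA hairpin is cut by Dicer into a short duplex, and either strand, the 5p arm or the 3p arm, can be loaded onto an Argonaute protein. The loaded arm finds messenger RNAs mainly through its seed, the bases near its 5′ end, and lowers their translation and stability. miR-193a and miR-193b are paralogues whose 3p arms have been described as growth-restraining, and KIT, a receptor tyrosine kinase of blood progenitors, is a known target of miR-193a-3p. miR-365 lies beside miR-193 at both genomic locations.

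The mature sequences, from RefSeq on GRCh38.p14, are shown to make clear which arms can be told apart by sequence and which have the same seed. Capitals mark the seed, bases 2 to 8 from the 5′ end.
hsa-miR-193a-3p: aACUGGCCuacaaagucccagu
hsa-miR-193b-3p: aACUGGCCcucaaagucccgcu
hsa-miR-193a-5p: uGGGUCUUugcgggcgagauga
hsa-miR-193b-5p: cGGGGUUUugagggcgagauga
hsa-miR-365b-5p: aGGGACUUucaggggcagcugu
hsa-miR-365a-5p: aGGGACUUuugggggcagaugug
hsa-miR-365a-3p: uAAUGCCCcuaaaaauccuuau
hsa-miR-365b-3p: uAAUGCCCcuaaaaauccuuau

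The 3p arms of miR-193a and miR-193b had the same seed and differed at 4 of 22 bases, all outside it: U9C, A10U, A20G and G21C, with the miR-193a base first and positions counted from the 5′ end. The 5p arms differed at 4 of 22 bases too, U1C, U5G, C6U and C11A, but here positions 5 and 6 fell in the seed, so the 5p seeds were not the same. The 5p arms of miR-365a and miR-365b had the same seed and differed at 3 of the 22 bases compared, U10C, G11A and A19C, with the miR-365a base first. The 3p arms of miR-365a and miR-365b were identical, so a read of either could not have been given to a location by its sequence.

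The 4 hairpins make up a pair on chromosome 17 and a pair on chromosome 16, all on the plus strand of GRCh38. MIR193A lies at chr17:31559996-31560083 and MIR365B at chr17:31575411-31575521, with 15327 bases between them. GENCODE places MIR365B within the long noncoding RNA gene MIR365BHG (chr17:31571142-31575659), where it overlaps the start of an exon at chr17:31575511-31575659, and no other gene overlaps MIR193A. MIR193B lies at chr16:14303967-14304049 and MIR365A at chr16:14309285-14309371, with 5235 bases between them, and both fall in introns of the long noncoding RNA gene MIR193BHG (chr16:14301389-14331067). The hairpins of miR-193a and miR-193b are given with their mature arms in capitals, since the arms of these 2 hairpins were used in opposite proportions in Molm-14.
MIR193A: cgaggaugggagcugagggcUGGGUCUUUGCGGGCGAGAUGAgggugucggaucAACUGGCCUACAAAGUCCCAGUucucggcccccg
MIR193B: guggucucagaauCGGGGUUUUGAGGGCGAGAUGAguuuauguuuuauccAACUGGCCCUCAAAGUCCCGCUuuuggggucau

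The chromosome 17 hairpins gave nearly all reads of the 6 arms. miR-193a-5p was the most abundant arm in all 12 libraries. Its level, in CPM scaled by TMM factors, was 126, 130 and 146 in the MV4-11 EV libraries and 204, 177 and 187 in those of MV4-11 with MPC1 KO. The Molm-14 EV libraries held 237, 218 and 183 CPM, and those with MPC1 KO held 258, 243 and 234 CPM. All Molm-14 EV libraries thus stood above all MV4-11 EV libraries, in a comparison where 64.2% of all miRNAs tested had groups that did not overlap. The group means ranked between 124th and 150th of the 1204 miRNAs.

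miR-365b-5p, the arm with a 5p seed of the miR-365 kind, was the second most abundant. It stood at 18.1, 18.1 and 17 CPM in MV4-11 EV and at 22.7, 16.9 and 19.6 CPM in MV4-11 MPC1 KO. Its Molm-14 EV libraries held 22, 30.9 and 26.5 CPM, and its Molm-14 MPC1 KO libraries held 29.8, 35.6 and 32.4 CPM. The MPC1 KO and EV libraries overlapped in each line.

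miR-193a-3p, the arm with the KIT seed, was low. It was at 4.26, 2.72 and 5.74 CPM in MV4-11 EV and at 6.22, 6.35 and 4.06 CPM in MV4-11 MPC1 KO, from 12 to 38 reads per library. In Molm-14 it was at 9.18, 6.14 and 7.65 CPM in EV and at 8.45, 8.80 and 4.92 CPM in MPC1 KO, from 21 to 48 reads. The MPC1 KO libraries overlapped the EV libraries in both lines.

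The chromosome 16 arms were near the limit of detection. In MV4-11, miR-193b-3p had 1, 1 and 3 reads with EV and 2, 0 and 0 reads after MPC1 KO. In Molm-14 it had 5, 14 and 19 reads with EV and 21, 10 and 14 reads after MPC1 KO. The lowest Molm-14 count was thus above the highest MV4-11 count, for a member that was kept for testing through its Molm-14 libraries, and the libraries of the lines did not overlap for 64.2% of all miRNAs tested in EV and 67.5% in MPC1 KO. In the MV4-11 libraries with no read, a count of 0 allows up to 0.556 CPM. miR-193b-5p had at most 2 reads in any library and 0 in all 3 MV4-11 EV libraries. miR-365a-5p had at most 5 reads in a library. That highest count was in Molm-14 EV replicate 2, and the other Molm-14 EV libraries had 0. The filter on low counts passed 3 of the 4 members measured, miR-193a-5p, miR-193a-3p and miR-193b-3p, and miR-193b-3p passed it only because of its Molm-14 libraries. miR-365b-5p passed as well, while miR-193b-5p and miR-365a-5p were not tested. In such bulk samples, fewer cells that hold a miRNA and less of it per cell cannot be told apart.

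**Figure D1:**
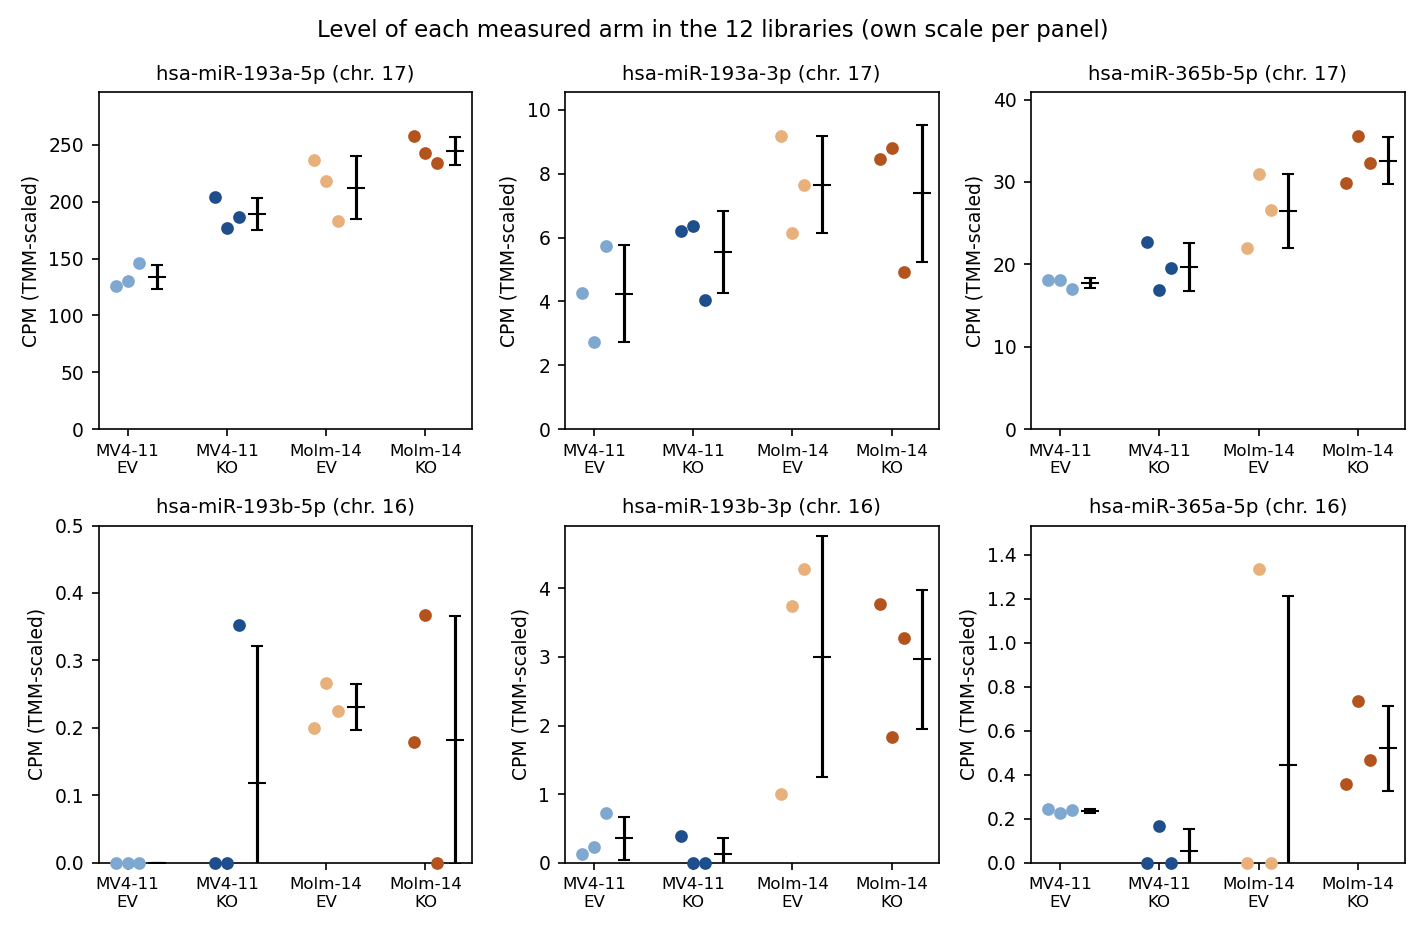
Level of each measured arm in CPM scaled by TMM factors (y axis, own scale per panel) by group (x axis), with 1 point per library and the mean ± SD of 3 libraries beside the points (whiskers end at 0 where they would go below it). The panels show miR-193a-5p between 126 and 258 CPM, with MPC1 KO above EV in MV4-11, and the chromosome 16 arms within a few CPM of 0.

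In MV4-11, miR-193a-5p was higher with MPC1 KO than with EV. The mean level was 134 ± 10.5 CPM in EV and 189 ± 13.8 CPM in MPC1 KO (SD, n = 3 each), a fitted log2 fold change of 0.50 (SE 0.11, 95% CI 0.27 to 0.73, edgeR quasi-likelihood test, adjusted p = 0.00718), and the libraries of the groups did not overlap. It was the 1 member of 3 tested that passed the threshold in this comparison. Among all 659 miRNAs tested, 3.03% passed it, 1.97% with a higher level in MPC1 KO, and 17.5% had groups that did not overlap. miR-193a-3p, from the same hairpin, had a log2 fold change of 0.39 (95% CI -0.24 to 1.01, adjusted p = 0.657), an interval that includes both 0 and the change of the 5p arm. miR-365b-5p, its neighbour on chromosome 17, had 0.15 (95% CI -0.21 to 0.50, adjusted p = 0.784). miR-193b-3p had no more than 3 reads in any MV4-11 library, so no fold change is given. The call on miR-193a-5p was lost without MV4-11 EV replicate 2 (log2 fold change 0.47, adjusted p = 0.0603), without MV4-11 MPC1 KO replicate 1 (0.44, adjusted p = 0.0703) and with upper-quartile scaling (0.39, adjusted p = 0.0663), a scaling that moved the median of all miRNAs to -0.12.

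In Molm-14, none of the 3 members tested passed the threshold between MPC1 KO and EV, against 6.83% of all miRNAs tested. By edgeR 0 members had an unadjusted p under 0.05, and 0 passed by DESeq2 or limma-voom. miR-193a-5p was at 212 ± 27.4 CPM in EV and 245 ± 12.1 CPM in MPC1 KO (SD, n = 3 each), a log2 fold change of 0.20 (SE 0.11, 95% CI -0.02 to 0.43, edgeR adjusted p = 0.323), and the groups overlapped. miR-365b-5p was at 26.5 ± 4.50 and 32.6 ± 2.88 CPM, a log2 fold change of 0.31 (95% CI -0.03 to 0.64, adjusted p = 0.323). The values of miR-193a-3p and miR-193b-3p were -0.05 (95% CI -0.62 to 0.53) and 0.01 (95% CI -0.99 to 1.02), intervals wide enough to hold a change of the size seen for miR-193a-5p in MV4-11. The sign of both values turned with single libraries, reaching 0.17 for miR-193a-3p without Molm-14 MPC1 KO replicate 3 and -0.43 for miR-193b-3p without Molm-14 EV replicate 1.

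Although miR-193a-5p passed the threshold in MV4-11 and not in Molm-14, the effects were not shown to differ between the lines. Subtracting the MV4-11 log2 fold change from that in Molm-14 gave -0.29 (95% CI -0.62 to 0.03, edgeR quasi-likelihood test, adjusted p = 0.31). Of the members tested, 0 of 3 passed this test, against 6.68% of all miRNAs. At an unadjusted p under 0.05 the edgeR count was 0 too, and 0 passed by DESeq2 or limma-voom. For miR-365b-5p the difference was 0.16 (95% CI -0.33 to 0.65).

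**Figure D2:**
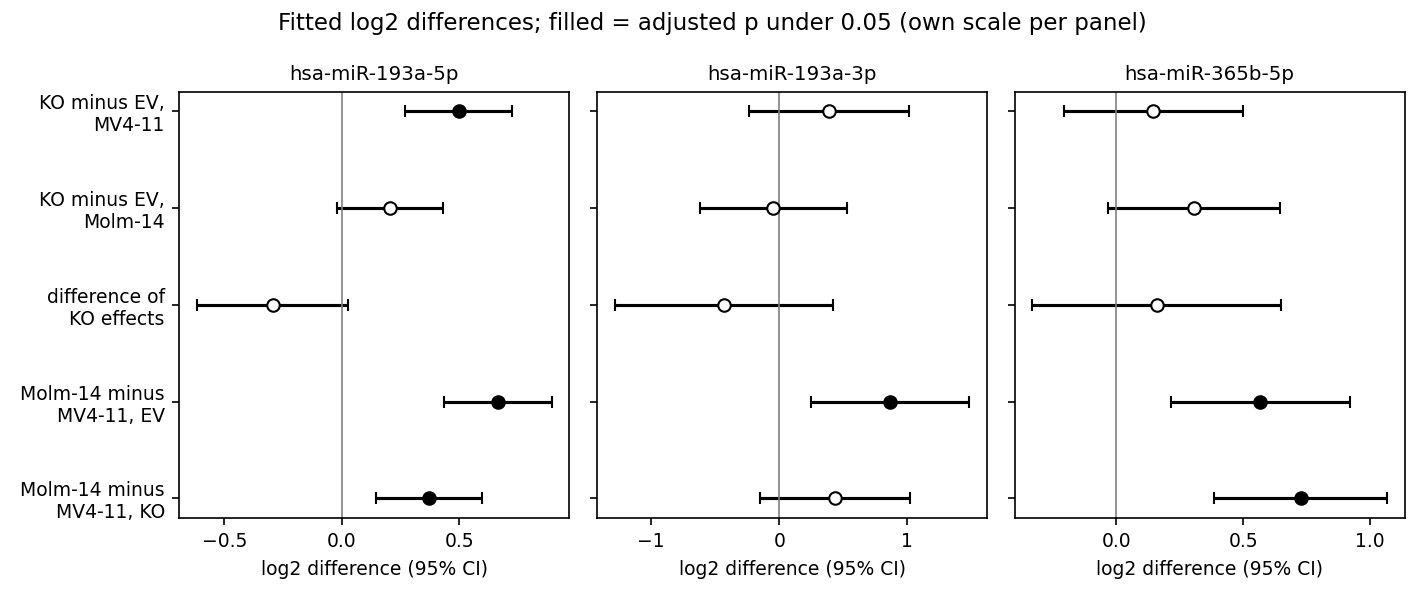
Fitted log2 differences with 95% confidence intervals (x axis, own scale per panel) of miR-193a-5p, miR-193a-3p and miR-365b-5p in 5 comparisons (y axis), filled where the adjusted p was under 0.05. The filled points are miR-193a-5p in MV4-11 for MPC1 KO against EV, at 0.50, and all comparisons between the lines but that of miR-193a-3p in MPC1 KO.

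With the empty vector, miR-193a-5p, miR-193a-3p and miR-365b-5p were higher in Molm-14 than in MV4-11. Of the members tested, 3 of 3 passed the threshold as higher, but the direction of miR-193b-3p was fixed by the filter, so the count is no more than a description. In this comparison 61.9% of all miRNAs tested passed the threshold, 33.5% of all were higher in Molm-14, and 64.2% had groups that did not overlap. The fitted log2 fold change was 0.67 (SE 0.11, edgeR adjusted p = 1.27e-05) for miR-193a-5p and 0.87 (SE 0.30, adjusted p = 0.0151) for miR-193a-3p. For miR-365b-5p it was 0.57 (SE 0.17, adjusted p = 0.00584). For miR-193b-3p, which had to be higher in Molm-14 to be tested at all, pooled reads were 38 in Molm-14 EV and 5 in MV4-11 EV, a ratio of 9.38 per read of depth (95% interval 3.69 to 30.5, counting error only). The ratio was 5.73 without MV4-11 EV replicate 1 and 18.0 without MV4-11 EV replicate 3, which held 3 of the 5 reads.

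The call on miR-193a-3p was lost without MV4-11 EV replicate 1 (log2 fold change 0.83, adjusted p = 0.0501), without MV4-11 EV replicate 2 (0.66, adjusted p = 0.0715), without Molm-14 EV replicate 1 (0.67, adjusted p = 0.095) and with upper-quartile scaling (0.68, adjusted p = 0.0551). Upper-quartile scaling also moved miR-365b-5p to 0.39 (adjusted p = 0.0525), with the median of all miRNAs at -0.12.

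Among MPC1 KO libraries, miR-193a-5p and miR-365b-5p were higher in Molm-14. Of the members tested, 2 of 3 passed the threshold as higher, and here too the direction of miR-193b-3p was fixed by the filter, which leaves miR-193a-5p as the call that it did not fix. Among all miRNAs tested, 62.4% passed the threshold and 32.9% were higher. miR-193a-5p had a log2 fold change of 0.37 (SE 0.11, edgeR adjusted p = 0.0049) with groups that did not overlap, as for 67.5% of all miRNAs, and scaling by total counts gave 0.26 (adjusted p = 0.0658). miR-365b-5p had 0.73 (SE 0.16, adjusted p = 4.83e-04). miR-193a-3p did not pass, with 0.43 (95% CI -0.15 to 1.02, adjusted p = 0.188) and overlapping groups. miR-193b-3p had 45 pooled reads in Molm-14 MPC1 KO and 2 in MV4-11 MPC1 KO, a ratio of 22.9 (95% interval 5.97 to 195, counting error only), and both MV4-11 reads came from replicate 1, without which no read was left. The ratio was 14.9 without MV4-11 MPC1 KO replicate 2 and 15.1 without replicate 3.

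The relative share of the chromosome 16 copies among the reads of the 6 measured arms was then compared between the lines. It is not the whole output of each copy, since the miR-365 3p arms had no values. In the total, miR-193a-5p alone gave 5390 reads in MV4-11 and 6569 in Molm-14, so the share is set mostly against that arm. Of the reads of the 6 arms, 14 of 6197 in MV4-11 (0.226%, exact Clopper-Pearson 95% CI 0.124 to 0.379) and 102 of 7732 in Molm-14 (1.32%, 95% CI 1.08 to 1.60) came from chromosome 16. By library the share was 0.0834% to 0.564% in MV4-11 and 0.445% to 2.05% in Molm-14, so the lines overlapped only through Molm-14 EV replicate 1, at 0.445%. The mean share over libraries was 0.254 ± 0.169% in MV4-11 and 1.39 ± 0.614% in Molm-14 (SD, n = 6 each), a difference with p = 0.01 in a two-sided exact permutation test that kept the genotypes apart (adjusted p = 0.113 over 15 tests). The smallest p of that test was 0.005, and within a genotype, where 3 libraries against 3 cannot go below 0.1, p was 0.2 in EV and 0.1 in MPC1 KO (exact permutation test). The share was chosen after seeing the data, and miR-193b-3p gave 7 of the 14 MV4-11 reads and 83 of the 102 Molm-14 reads. That arm was kept for testing through its Molm-14 libraries, so these p-values are no independent support for a difference between the lines.

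For the 3p arms, which carry the seed of the KIT match, miR-193b-3p made up 7 of 171 reads in MV4-11 (4.09%, 95% CI 1.66 to 8.25) and 83 of 302 reads in Molm-14 (27.5%, 95% CI 22.5 to 32.9). Both intervals pool the libraries of a line and cover counting error only. By library the share ranged from 0% to 11.1% in MV4-11 and from 9.80% to 40.0% in Molm-14, so the lines overlapped. The log2 ratio of miR-193a-3p to miR-193b-3p, with 0.5 added to each count, was 4.33 ± 1.39 in MV4-11 and 1.42 ± 1.01 in Molm-14 (SD, n = 6 each; exact permutation p = 0.015, adjusted p = 0.113). Here miR-193b-3p had at most 3 reads per MV4-11 library and was kept for testing through its Molm-14 libraries. The added count thus weighed on this ratio, with Molm-14 minus MV4-11 at -2.91, and at -2.43 with a larger added count. Its p-value is no independent support for a difference between the lines. miR-193b-3p was lower than miR-193a-3p in all 12 libraries. The share of the 5p arms stayed small in both lines: miR-193b-5p made up 0.0371% and 0.0913% of the miR-193 5p reads, and miR-365a-5p made up 0.789% and 1.52% of the miR-365 5p reads, in MV4-11 and Molm-14, with overlapping 95% intervals in each case. These pooled intervals cover counting error only. They rest on 2 and 6 reads of miR-193b-5p and on 5 and 13 of miR-365a-5p, so their overlap shows neither equal nor different shares. Between MPC1 KO and EV, 3 libraries against 3 could not pass the threshold for any of these shares or ratios, whatever their values.

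**Figure D3:**
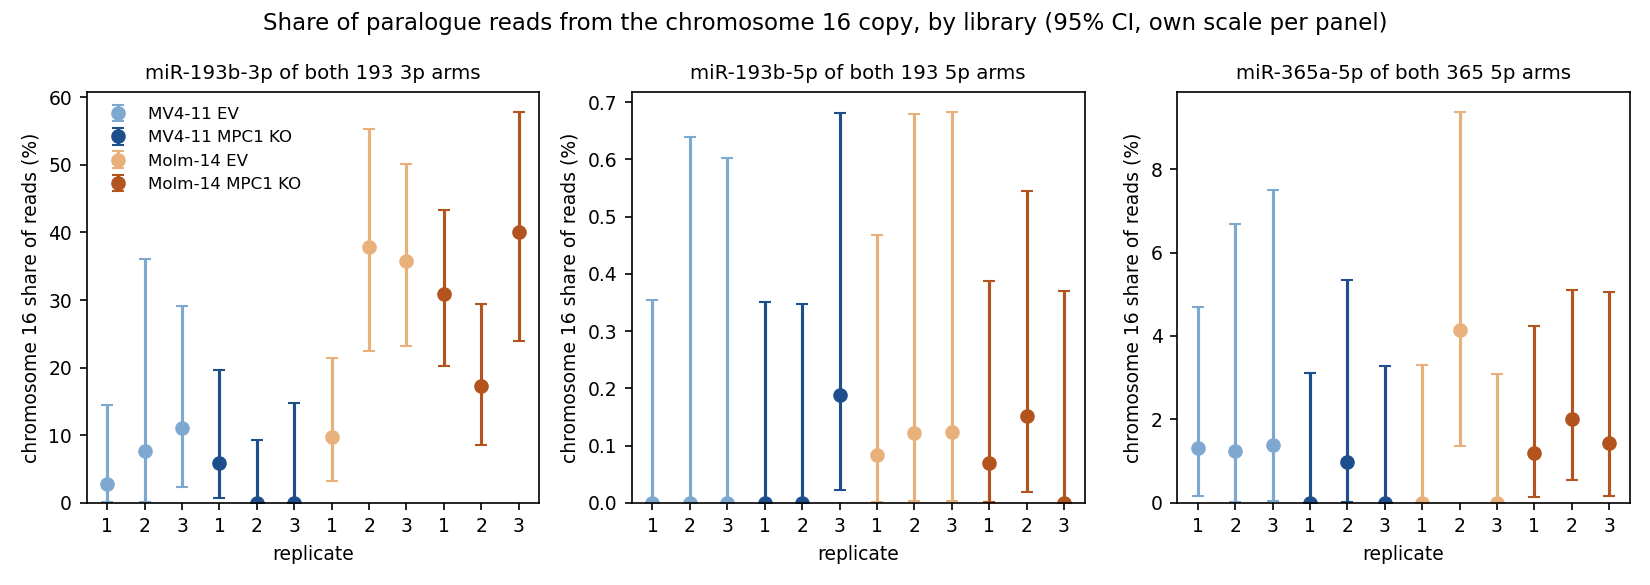
Percent of reads that came from the chromosome 16 copy (y axis, own scale per panel) for the miR-193 3p arms, the miR-193 5p arms and the miR-365 5p arms in each library (x axis, 3 replicates per group), with exact 95% intervals for counting error. The miR-193b-3p share reached 17.2% to 40.0% in 5 Molm-14 libraries and was 9.80% in Molm-14 EV replicate 1 and 0% to 11.1% in MV4-11.

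The balance of the chromosome 17 hairpins gave no adjusted p under 0.05 between the lines. The log2 ratio of miR-365b-5p to miR-193a-5p was -3.09 ± 0.231 in MV4-11 and -2.96 ± 0.262 in Molm-14 (SD, n = 6 each; exact permutation p = 0.37). The genotypes went opposite ways, with Molm-14 minus MV4-11 at -0.10 in EV (exact permutation p = 0.9) and at 0.36 in MPC1 KO, where the libraries of the lines did not overlap and p was the smallest that 3 against 3 allow (exact permutation p = 0.1, adjusted p = 0.214). Within MV4-11 it was lower in MPC1 KO (-3.26 ± 0.11) than in EV (-2.91 ± 0.16), a difference of -0.36 at the smallest p that 3 libraries against 3 allow (exact permutation p = 0.1, adjusted p = 0.214). This ratio was chosen after seeing the data. It is built from the same counts as the fold changes of both arms given above, so it is no separate support for a change.

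In Molm-14, miR-193a and miR-193b used opposite arms, while miR-193b had too few reads in MV4-11 to say so for every library. For miR-193a the 5p arm had 23.9 to 47.9 times as many reads as the 3p arm in the 12 libraries, with a 3p share of 2.04% to 4.02%. For miR-193b the 3p arm had more reads than the 5p arm in all 6 Molm-14 libraries, 83 against 6 in total, a 3p share of 93.3% (95% CI 85.9 to 97.5). In MV4-11 the miR-193b 3p and 5p arms had 7 and 2 reads in total (3p share 77.8%, 95% CI 40.0 to 97.2). The 3p arm led in 4 of the 6 MV4-11 libraries, the 5p arm led in MPC1 KO replicate 3 with 2 reads against 0, and the remaining library had no read of either. These comparisons are of reads of arms of similar length, and how well each arm is captured by the library kit was not tested.

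Set against the other hairpins, the arm use of miR-193a was lopsided but not extreme. Across 164 hairpins with both arms tested, the 5p arm led in 82, and the mean log2 ratio of 5p to 3p reads was 4.99 for miR-193a, with 34 hairpins above it. That count leaves out hairpins that leaned further to the 3p arm, such as miR-19a at -9.59. MPC1 KO did not change the miR-193a ratio past the threshold. It moved by 0.09 in MV4-11 (95% CI -0.58 to 0.75, limma adjusted p = 0.994) and by 0.29 in Molm-14 (95% CI -0.38 to 0.96, adjusted p = 0.78). By the same test 0 of 164 hairpins changed in either line, with 9 and 21 at an unadjusted p under 0.05. Between the lines the miR-193a ratio differed by -0.23 in EV and -0.02 in MPC1 KO (adjusted p = 0.623 and 0.972), while 24.4% and 30.5% of hairpins passed the threshold there.

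**Figure D4:**
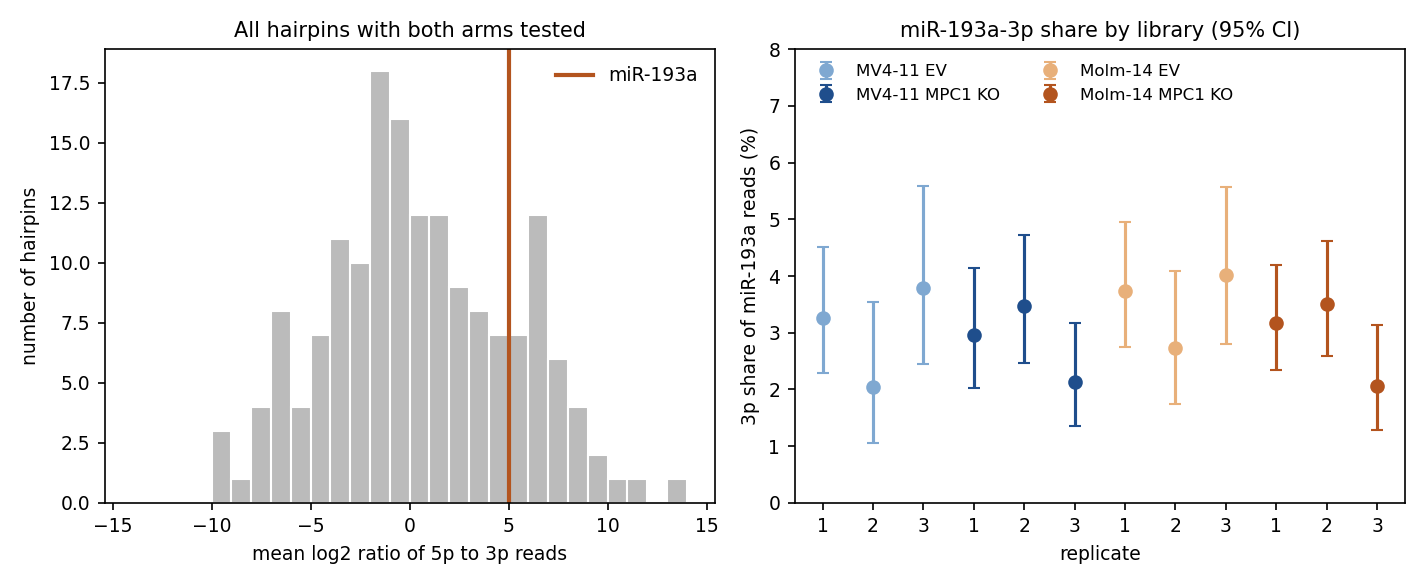
Left, number of hairpins (y axis) by mean log2 ratio of 5p to 3p reads over 12 libraries (x axis) for the 164 hairpins with both arms tested, with miR-193a at 4.99 as a line. Right, the 3p share of miR-193a reads in percent (y axis) in each library (x axis, 3 replicates per group) with exact 95% intervals for counting error, all between 2.04% and 4.02%.

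A 3′ UTR match to the shared miR-193 3p seed is shown for 4 genes known from other work as targets of the miR-193 3p arms, which were picked with earlier results of these data known. KIT encodes the receptor named above, CCND1 a cyclin of the G1 phase, MCL1 a survival protein of the BCL2 family, and PLAU the urokinase plasminogen activator. The letters GGCCAGT, the reverse complement of the seed, are in capitals, on the strand of the messenger RNA and from GRCh38.
KIT, chr4:54739631-54739652, plus strand: tgtcctggacaccgGGCCAGTa
CCND1, chr11:69652716-69652737, plus strand: gaggatgttcataaGGCCAGTa
MCL1, chr1:150577041-150577062, minus strand: gagaacaggaaagtGGCCAGTa
PLAU, chr10:73917328-73917349, plus strand: gatgtccctttcttGGCCAGTt

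Each of the 4 UTRs held 1 match, and the same letters stood in 1950 of 19217 UTRs of canonical transcripts (10.1%). An A followed the match in KIT, CCND1 and MCL1. A match is a description of letters, and no messenger RNA was measured in these libraries.

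miR-221-3p and miR-222-3p, also known as KIT repressors, were far more abundant than the miR-193 3p arms. The summed level of miR-193a-3p and miR-193b-3p was 4.60 ± 1.77 CPM with EV and 5.67 ± 1.40 CPM with MPC1 KO in MV4-11, and 10.7 ± 1.10 CPM with EV and 10.4 ± 2.02 CPM with MPC1 KO in Molm-14 (SD, n = 3 each). The summed level of miR-221-3p and miR-222-3p was 31871 ± 5290 and 33761 ± 4653 CPM in MV4-11, and 11706 ± 1725 and 15575 ± 1018 CPM in Molm-14, in the same order. The highest sums of the miR-193 3p arms were thus in the line with the lower miR-221-3p and miR-222-3p. With only 2 lines, sums that differ must go the same or the opposite way, so this order is a description. The Molm-14 sums also include miR-193b-3p, whose direction between the lines was fixed by the filter. A link between the sums was not tested. Of 6 such miRNAs listed, 3 were tested, miR-221-3p, miR-222-3p and miR-34a-5p, while miR-494-3p, miR-218-5p and miR-137 had at most 5 reads in a library.

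Between MPC1 KO and EV, 0 of the 3 passed the threshold in either line by edgeR, with 1 and 2 at an unadjusted p under 0.05 in MV4-11 and Molm-14. Between the lines, 3 were lower in Molm-14 EV, where 28.4% of all miRNAs were lower: miR-221-3p fell by 1.46, miR-222-3p by 1.42 and miR-34a-5p by 0.26 on the log2 scale (edgeR adjusted p = 2.93e-11, 1.89e-04 and 0.0165). In MPC1 KO, where 29.4% of all miRNAs were lower, 2 were lower in Molm-14, miR-221-3p by a log2 fold change of -1.29 and miR-222-3p by -0.87. The list median was -1.42 in EV and -0.87 in MPC1 KO, beside 0.06 and 0.05 over all miRNAs. With 3 tested, each list median is the value of miR-222-3p, and miR-34a-5p was at 0.08 in MPC1 KO. The medians thus do not describe a set.

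The pattern of each arm over the 12 libraries was compared with all other tested miRNAs by the root mean square difference of centred log2 CPM, where a lower value means more alike. The miRNAs most like miR-193a-5p were miR-181a-2-3p (0.113), miR-450b-5p (0.164) and miR-28-5p (0.176). miR-365b-5p ranked 13th of 658 by likeness to miR-193a-5p, miR-193a-3p 71st and miR-193b-3p 550th. The miRNAs most like miR-365b-5p were miR-1307-3p (0.158), miR-542-5p (0.164) and miR-590-3p (0.206), with miR-193a-5p at rank 11. For miR-193a-3p they were miR-671-3p (0.272), miR-1537-3p (0.278) and miR-6758-3p (0.298), and for miR-193b-3p they were miR-9-3p (0.592), miR-147b (0.596) and miR-1180-3p (0.619). The low read counts of the 3p arms add counting noise to these values, so ranks across arms are not on equal footing.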

How the data were processed

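Small RNA libraries (NEBNext kit) from 12 samples were analysed. The authors deposited raw read counts per miRNA. Per the labels, the processing notes name STAR 2.5.2, featureCounts 1.5.1 and GRCh38. How reads that map to several places were treated is not given in the sources used here. Groups came from the labels. The members and lists were chosen with earlier results of these data known.

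Counts were tested in edgeR 4.0.16 (R 4.3.3) with TMM factors (0.940 to 1.08), a filter at a minimum count of 10 that kept 659 of 1204 miRNAs, robust quasi-likelihood fits of 4 group means over 12 libraries, and Benjamini-Hochberg adjustment at 0.05. Arm ratios were tested in limma 3.58.1 on log2 counts with a pseudocount of 0.5. Ratios between hairpins were tested by exact permutation. Intervals on shares and the limit that a count of 0 allows (3 counts) cover counting error only. Replicates differed beyond sampling noise (chi-square per degree of freedom 11.4 to 154). Named miRNAs were the members, other arms of their hairpins, the 3 most alike miRNAs per tested arm and the KIT list. Alternatives included DESeq2 1.42.0, other scalings and filters, a replicate block and leaving out each library. Scripts were tested on simulated data.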

Additional observations from a re-analysis of the deposited data

How the results depend on the processing

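The count of members passing between MPC1 KO and EV in MV4-11 was 1 and became 0 with upper-quartile scaling, and ranged from 0 to 1 when each library was left out, with the call lost without EV replicate 2 and without MPC1 KO replicate 1 of that line. Between the lines in EV it was 3 and fell to 2 with upper-quartile scaling, where the call on miR-193a-3p was lost. It fell to 1 with a mean of at least 100 counts, where only 1 member was tested, and ranged from 2 to 3 without single libraries. In MPC1 KO it was 2 and became 1 with total counts and with a mean of at least 100 counts. The count in Molm-14 and for the difference of effects was 0 in every alternative run, DESeq2 and limma-voom included. Hairpins with a changed arm ratio numbered 25 to 44 between the lines in EV (40 with all libraries, 25 without MV4-11 EV replicate 2) and 33 to 54 in MPC1 KO (50 with all libraries, 33 without MV4-11 MPC1 KO replicate 1). All miRNAs called between MPC1 KO and EV in MV4-11 numbered 20, but 12 without MV4-11 MPC1 KO replicate 1, 38 without Molm-14 EV replicate 2 and 34 without Molm-14 EV replicate 3. For the difference of effects they numbered 44 and ranged from 22 to 53.

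No value that passed its threshold changed sign. Among values that did not pass, the sign of miR-193a-3p between MPC1 KO and EV in Molm-14 turned to 0.0247 with upper-quartile scaling, and leaving out single libraries gave -0.17 to 0.17. The same value of miR-193b-3p ranged from -0.43 to 0.40. The miR-193a arm ratio ranged from -0.11 to 0.34 for MPC1 KO against EV in MV4-11, from -0.41 to 0.0297 and from -0.25 to 0.17 between the lines in EV and MPC1 KO, and from -0.0527 to 0.40 for the difference of effects. Between MPC1 KO and EV in Molm-14, the log2 ratio of miR-193a-3p to miR-193b-3p ranged from -0.68 to 0.55, that of miR-365b-5p to miR-193a-5p from -0.11 to 0.21, and the chromosome 16 share from -0.77 to 0.0323 percentage points. The miR-365b-5p to miR-193a-5p ratio between the lines in EV ranged from -0.21 to 0.11. The cause was not tested.

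The deviations of same-numbered replicates had correlations of -0.127 to 0.116. These values cannot show whether same-numbered libraries were handled together, and the labels give no pairing beyond the number. With a replicate block, miR-193a-5p in MV4-11 was at 0.50 (adjusted p = 0.00743), and no count of members changed. Over all alternatives and left-out libraries its adjusted p ranged from 0.00125 to 0.0703. The ratio of miR-365b-5p to miR-193a-5p, the chromosome 16 share and leaving out libraries from the pooled miR-193b-3p ratio were chosen after seeing the data, and ratios that need hsa-miR-365a-3p were not run. With at most 3 reads of miR-193b-3p per MV4-11 library, depth limits any statement on its change there.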

Other observations

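A further hairpin, miR-4725, lies in MIR365BHG beside MIR365B, and it was looked at after its values were seen. hsa-miR-4725-3p had 22, 6 and 4 reads in MV4-11 EV, 12, 7 and 27 in MV4-11 MPC1 KO, 4, 1 and 6 in Molm-14 EV, and 2, 0 and 0 in Molm-14 MPC1 KO. It passed the filter on low counts through its MV4-11 libraries, so its direction between the lines was fixed by that filter and no test of it is given. The libraries of the lines overlapped in EV and did not overlap in MPC1 KO, as was so for 67.5% of all miRNAs tested there.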
